A study of Mus musculus with 11 samples.

Results

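The transcripts described here are those of Geminin (Gmnn), of Cdt1, which the Geminin protein binds, of the loading factor Cdc6 and of the 6 subunits of the origin recognition complex (Orc1 to Orc6). All 9 were found by their symbols among the 47517 gene names of the count table, and all 9 were among the 15821 genes with enough reads to be tested. RNA-seq was done on forelimb buds of C57BL/6 mouse embryos at E10.5. Controls carried 1 wild-type and 1 floxed Gmnn allele with the Prx-Cre transgene (Gmnn +/f; Prx-Cre, 5 libraries), and mutants carried 2 floxed alleles with the same transgene (Gmnn f/f; Prx-Cre, 6 libraries). Both groups thus carried a floxed allele and Cre, and no library without them was analysed here. Prx-Cre is active in limb bud mesenchyme, whereas the libraries were made from forelimb buds as a whole, which also hold ectoderm, vessels and blood. The embryos came from 4 litters. The first 2 controls and the first 2 mutants were littermates (litter A). The third control shared litter B with mutant 6, and the fourth shared litter C with mutant 5. Litter D gave control 5 together with mutants 3 and 4.

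Replication origins are licensed before S phase, when the origin recognition complex on DNA, with Cdc6 and Cdt1, loads the Mcm helicase. Geminin accumulates after S phase has begun and holds Cdt1 inactive, and the Cdt1 protein is destroyed during S phase, so that an origin is not licensed again in the same cycle. Several genes of this set are textbook targets of the E2F transcription factors, which activate genes at entry into S phase.

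Promoter windows from RefSeq (GRCm38.p6, the assembly behind mm10) were matched for 8 of the 9 members, in 11 windows. Each window had 300 bases, with 250 before and 50 after an annotated start. Gmnn had no window, so its promoter was not searched. The E2F motif was searched on both strands in the forms TTTGGCGC, TTTCCCGC, TTTCGCGC and TTTGCCGC. It was found in 1 window each of Cdt1, Cdc6, Orc1 and Orc3, and in 2.26% of all 32851 windows. These 4 stretches are shown because, of the 11 windows searched, only those of Cdt1, Cdc6, Orc1 and Orc3 held these letters. Bases outside the windows were not searched. Each is written 5′ to 3′ on the gene's strand, with the E2F letters in capitals. For Cdc6 (chr11:98907982-98908150, plus strand, within the first intron of longer annotated transcripts) and Orc3 (chr4:34614945-34615192, minus strand) the part of the window before the start that lies outside annotated exons is given. For Cdt1 (chr8:122568035-122568064, plus strand) and Orc1 (chr4:108579416-108579445, plus strand) 30 bases are given, since the match lies in an annotated first exon. In Cdt1 it begins at base 33 of the transcript.
Cdt1: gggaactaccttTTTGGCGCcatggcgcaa
Cdc6: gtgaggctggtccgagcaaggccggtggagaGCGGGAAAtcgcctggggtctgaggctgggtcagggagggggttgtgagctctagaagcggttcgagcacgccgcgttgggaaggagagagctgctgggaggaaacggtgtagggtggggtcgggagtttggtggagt
Orc1: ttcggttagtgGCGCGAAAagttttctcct
Orc3: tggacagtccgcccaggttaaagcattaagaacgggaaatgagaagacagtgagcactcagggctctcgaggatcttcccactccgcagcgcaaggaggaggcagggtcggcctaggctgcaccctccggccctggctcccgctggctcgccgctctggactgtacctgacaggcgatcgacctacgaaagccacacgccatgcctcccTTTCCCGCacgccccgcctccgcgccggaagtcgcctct
The match began 138 bases before the RefSeq start in Cdc6, 27 before it in Orc1 and 41 before it in Orc3. In Cdc6 and Orc1 it lay on the opposite strand, so that the capitals show its reverse complement. The shorter motif CCAAT, searched on both strands, was found in windows of Orc1, Orc2, Orc4 and Orc6 and in 37.4% of all windows. Neither TTTGAA nor TTCGAA, the cell cycle homology region letters, was in any of the 11 windows, and 19.2% of all windows hold one. A match is a description of letters and not evidence that a factor binds there.

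Control libraries held 14777833 to 19733288 counted reads and mutant libraries 14721181 to 17034741. Levels are given as CPM, a gene's reads relative to the TMM-scaled total of its library. The limb mesenchyme marker Prrx1 stood at 198.6 to 312.8 CPM in every library, and the hindlimb marker Pitx1 at 0 to 4.07 CPM. The other hindlimb markers, Tbx4 and Isl1, stood at 0.56 to 6.11 CPM and 0.67 to 11.84 CPM. The 3 hindlimb markers summed to 3.47 to 18.6 CPM in controls and 2.69 to 6.07 CPM in mutants. Of the marker lists, neural tube genes summed to at most 0.350 CPM in any library, and the other lists were detected in both groups. Over 6 genes each, ectoderm and ridge markers summed to 91.6 to 184.7 CPM in controls and 101.4 to 158.4 CPM in mutants, and red blood cell genes to 9449 to 23648 CPM in controls and 11630 to 40913 CPM in mutants. No tested gene of the 9 marker lists passed an adjusted p of 0.05 between genotypes in edgeR. Y-linked reads numbered 24 in control 2, 9 in control 4, 8 in mutant 2 and 4 in mutant 5, against 1667 to 2716 in the other 7 libraries. The mean log2 CPM of genes with a run of 18 or more T bases in a transcript is called the T-run index. It lay between 4.72 and 4.82 in 4 controls, whereas control 5 had 4.45 and the mutants had 4.26 to 4.63. It thus moves with genotype, with control 5 inside the mutant range. A fit with the index as a covariate therefore cannot fully tell the index and genotype apart.

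Gmnn (chromosome 13, 24751845 to 24761923, minus strand, mm10) fell in mutants and was the only member to pass the test. In controls 1 to 5 it stood at 150.3, 199.0, 139.3, 170.6 and 238.9 CPM. In the 6 mutants it ranged from 99.5 to 137.7 CPM, with a median of 111.1 CPM. Every mutant thus lay below every control, although mutant 2 and control 3 were only a small step apart. The level in mutants was 0.629 of that in controls (95% interval 0.538 to 0.736, log2 fold change -0.67, SE 0.10, adjusted p 0.0291, edgeR quasi-likelihood F test blocked by litter). It was lower in 4 of 4 litters, by -0.54, -0.48, -0.74 and -0.94 in litters A to D on the log2 CPM scale. Of all genes tested, 2.18% passed the threshold in either direction, with 1.48% called lower and 0.702% called higher. Only Gmnn and Orc3 had groups that did not overlap, both with all mutants below all controls. Among all genes 1.3% did so, and 2.59% had no overlap in either direction. In bulk tissue, fewer cells that express a gene and less RNA per cell cannot be told apart. Counts are summed over all exons, so transcripts of a recombined allele are not separated from intact ones.

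The adjusted p for Gmnn was 0.0569 to 0.139 in the 8 fits that left out control 2, 3 or 4 or mutant 1, 3, 4, 5 or 6, with log2 fold changes of -0.71 to -0.63, and 0.0105 to 0.0251 in the fits without control 1, control 5 or mutant 2. With the T-run index added as a covariate the log2 fold change was -1.04 (edgeR adjusted p 0.00493), and without the litter block it was -0.64 (edgeR adjusted p 0.0501). The longest T run in a Gmnn transcript is 5 bases.

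**Figure D1:**
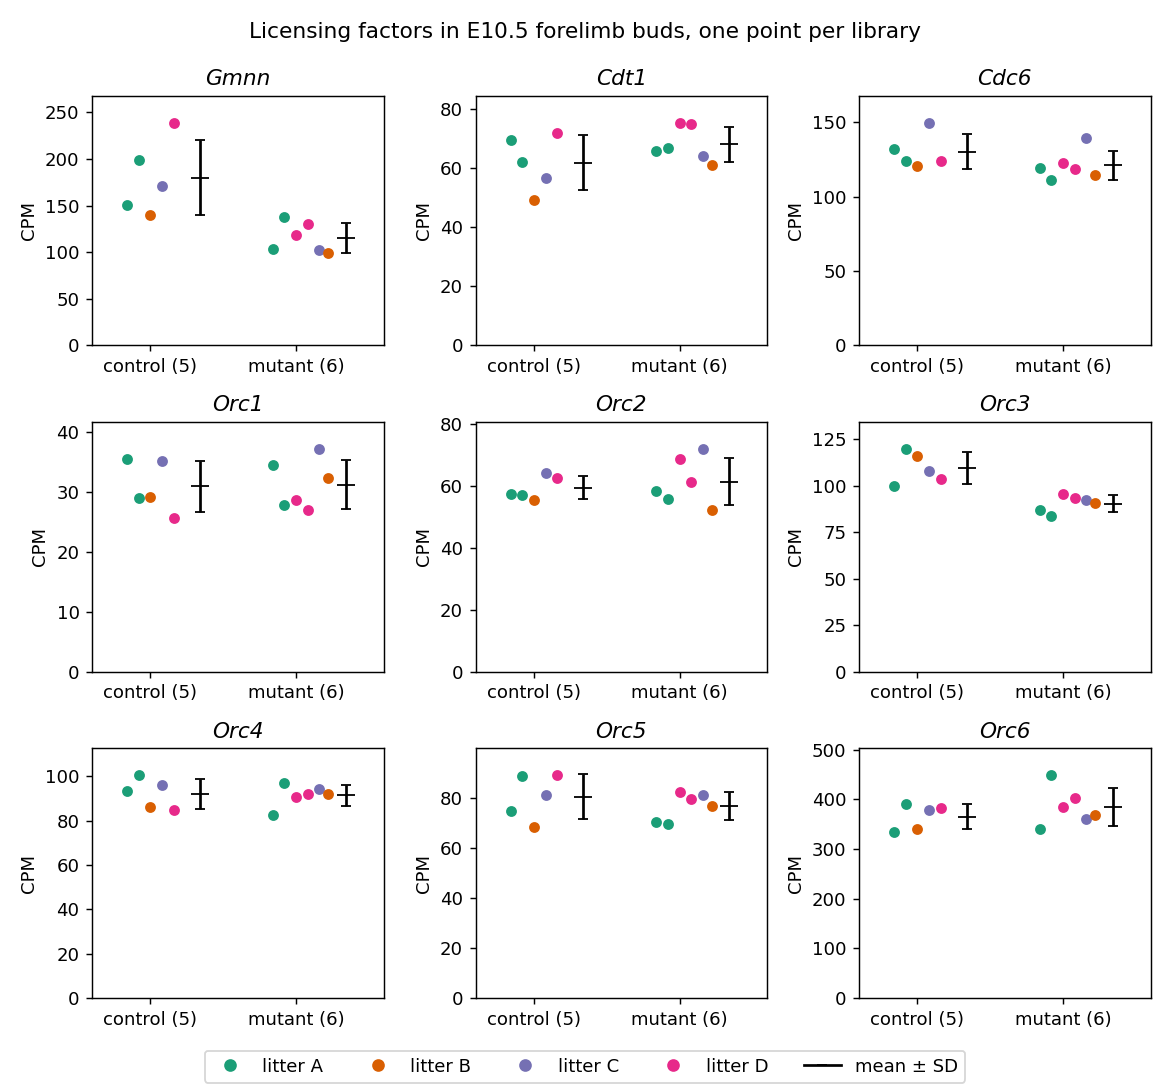
Level of each of the 9 transcripts in CPM (vertical axes start at 0) in 5 control and 6 mutant libraries, coloured by litter, with the group mean and SD to the right of the points. The mutant points lie below all control points for Gmnn (99.5 to 137.7 against 139.3 to 238.9 CPM) and for Orc3 (83.7 to 95.5 against 99.7 to 119.9 CPM), and the groups overlap for the other 7.

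Cdt1 (chromosome 8, 122568015 to 122573128, plus strand), the loading factor held by Geminin, did not pass the test. It stood at 69.5, 62.0, 49.2, 56.6 and 71.8 CPM in controls 1 to 5, and at 60.9 to 75.4 CPM (median 66.3) in mutants. The groups overlapped, and 2 mutants (3 and 4, both of litter D) lay above the highest control. The log2 fold change was 0.11 (95% interval -0.04 to 0.26, adjusted p 0.380 in edgeR), so that a rise of up to 1.20-fold lies within the interval. Cdt1 was higher in mutants in all 4 litters, by 0.01 in litter A, 0.31 in B, 0.18 in C and 0.07 in D. Of all genes tested, 12.6% were higher in all 4.

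Because Geminin acts on Cdt1, the ratio of both transcripts was taken within each library, which does not depend on how libraries are scaled. Per length (RPKM, the CPM divided by the exon length in kilobases), there were 3.23, 4.80, 4.23, 4.50 and 4.97 Gmnn transcripts for each Cdt1 transcript in controls 1 to 5. In mutants the ratio was 2.34 to 3.08, with a median of 2.41. All 6 mutants thus lay below all 5 controls. These values rest on exon lengths of 1465 bases for Gmnn and 2189 for Cdt1. With the longest coding transcripts, 1127 and 2189 bases, every ratio would be higher by the same factor. The comparison of genotypes would not change. The ratio in mutants was 0.567 of that in controls, a mean within-litter difference of -0.82 on the log2 scale (exact permutation p 0.0139, two-sided, genotype labels permuted within litters, 72 arrangements, the smallest p the design can give). The level of Gmnn alone gives the same exact permutation p of 0.0139, with a mean within-litter difference of -0.68, so the ratio is not separate evidence. The difference in the ratio was -0.55, -0.79, -0.92 and -1.01 in litters A to D. Without control 5, on which all of litter D rests, it was -0.75, and the exact permutation p of 0.0833 is the smallest the remaining libraries can give. The ratio counts transcripts and says nothing of the proteins, whose levels are set by degradation as well.

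**Figure D2:**
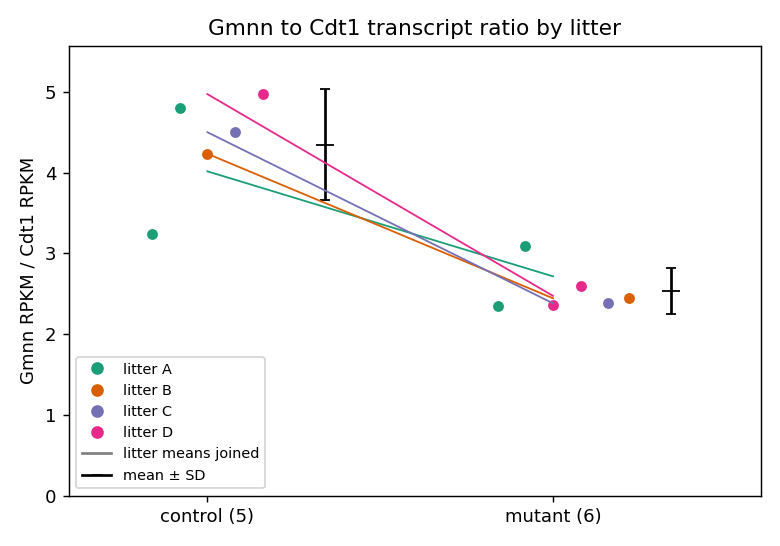
Ratio of Gmnn to Cdt1 in RPKM (vertical axis from 0) in each library, coloured by litter, with lines joining the litter means and the group mean and SD beside the points. All 4 lines go down from control to mutant, and the highest mutant (3.08, litter A) lies just under the lowest control (3.23, litter A).

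Cdc6 (chromosome 11, 98907801 to 98923940, plus strand), the ATPase that joins the origin recognition complex before the helicase is loaded, did not pass the test. It stood at 132.0, 124.3, 120.7, 149.8 and 124.3 CPM in controls and at 111.5 to 139.3 CPM (median 119.1) in mutants. The highest library of each group was the one of litter C, and 4 of the 6 mutants were under every control. Mutant over control, the log2 fold change was -0.10 (95% interval -0.23 to 0.03, edgeR adjusted p 0.341). The difference was negative in 4 of 4 litters but small in each, between -0.15 and -0.04. Of all genes tested, 13.5% were lower in all 4 litters.

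Among the 6 origin recognition subunits, none passed the threshold and Orc3 came nearest. Orc3 (chromosome 4, 34570796 to 34614944, minus strand) is part of the core of the complex and contacts Orc6. It stood at 99.7, 119.9, 116.3, 108.2 and 103.9 CPM in controls and at 83.7 to 95.5 CPM (median 91.6) in mutants. Every mutant lay below every control, the only such member besides Gmnn. The log2 fold change was -0.28 (SE 0.07, 95% interval -0.44 to -0.13), which is 0.823 of the control level, and the adjusted p was 0.0555 in edgeR. It was lower in 4 of 4 litters, by -0.36, -0.36, -0.22 and -0.14 in A to D. Orc3 passed the threshold in DESeq2 (adjusted p 0.0123), with no filter on low counts (0.0204 in edgeR), with a filter of 1 CPM in 5 libraries (0.0474), with a Y-linked covariate (0.0380) and without control 5 (0.0379). Orc3 did not pass in any other fit. Its adjusted p in edgeR was 0.076 to 0.218 when any other single library was left out, and 0.0739 to 0.216 without a litter. With a T-run covariate its log2 fold change was -0.21 (edgeR adjusted p 0.487). No exon base of Orc3 is shared with another gene, and its longest T run is 8 bases.

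The other 5 subunits had log2 fold changes of -0.09 to 0.06, adjusted p of 0.560 to 0.994 in edgeR, and overlapping groups. Orc1 (chromosome 4, 108579423 to 108614833) is an ATPase of the complex that binds chromatin and, in other mammalian cells, leaves it in S phase. It stood at 25.7 to 35.6 CPM in controls and 27.0 to 37.2 CPM in mutants, with a 95% interval of -0.14 to 0.25 on the log2 scale. Orc2 (chromosome 1, 58462771 to 58505109), a core subunit, stood at 55.6 to 64.3 CPM in controls and at 52.1 to 72.01 CPM in mutants, with an interval of -0.12 to 0.17. The mutants had both the lowest (mutant 6) and the highest (mutant 5) Orc2 value of all libraries.

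Orc4 (chromosome 2, 48902824 to 48950277), a subunit of the AAA+ family like Orc1 and Orc5, showed the smallest difference of the 9 members. It stood at 84.6 to 100.4 CPM in controls and 82.7 to 97.0 CPM in mutants, with an interval of -0.15 to 0.15 around -0.002. Its sign differed between settings, with 0.04 under upper-quartile scaling. Orc5 (chromosome 5, 22486485 to 22550429), which binds ATP, stood at 68.3 to 89.1 CPM in controls and 69.5 to 82.4 CPM in mutants, with an interval of -0.25 to 0.08. Orc6 (chromosome 8, 85299632 to 85308278), whose fold resembles a general transcription factor rather than the other subunits, stood at 334.1 to 390.6 CPM in controls and 340.2 to 448.6 CPM in mutants, with an interval of -0.11 to 0.24. Its log2 fold change of 0.06 became -0.16 with a T-run covariate and -0.01 without mutant 2.

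Across the 9 members, the median log2 fold change was -0.002, against 0.004 over all 15821 genes, and 5 members were below 0 and 4 above. At an unadjusted p under 0.05 in edgeR there were 2 members, Gmnn and Orc3, against 21.4% of all genes. The intervals of the 7 members other than Gmnn and Orc3 all lay between 0.839-fold and 1.20-fold. Each interval included no change and was narrower than that range. For each gene, a change within its own interval could not be told from none. These precisions rest on 367 (Orc1, control 5) to 7588 (Orc6, control 2) reads per library. The counting error at 367 reads is 5.22%, while the spread between libraries of a group was 4.90% to 22.4% (coefficient of variation, lowest for Orc3 in mutants, highest for Gmnn in controls). For 1 member, Orc2, 1150 exon bases (29.8% of its length) also belong to Nif3l1 on the opposite strand, and reads there were left out by the counting. For Orc1, Orc4 and Orc5, 10.8%, 7.80% and 1.46% of the exon bases are shared. Gmnn, Cdt1, Cdc6, Orc3 and Orc6 share none. Cdc6 and Orc5 carry T runs of 16 and 18 bases, and the other members runs of at most 9. Orc5 is thus among the genes averaged in the T-run index, and no other member is.

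**Figure D3:**
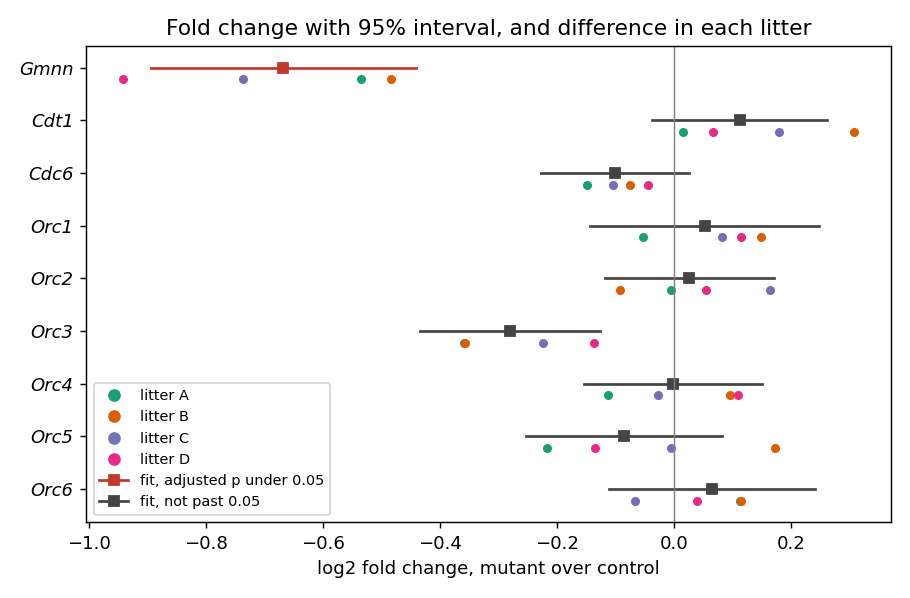
Log2 fold change of mutant over control (horizontal axis) for each member, with its 95% interval as a line, and the difference in each of the 4 litters as coloured points below. Gmnn (-0.67) is the only one past the threshold, Orc3 (-0.28) has an interval below 0 and all 4 litters below 0, and the other 7 intervals cross 0.

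The levels of the 9 transcripts spanned a wide range, which can be compared only per length. With the exon length of the count table, Orc6 was highest at 220.96 ± 15.7 RPKM in controls (SD, n = 5) and 232.4 ± 23.0 RPKM in mutants (SD, n = 6). Gmnn followed at 122.6 ± 27.4 RPKM in controls (SD, n = 5) and 78.7 ± 10.97 RPKM in mutants (SD, n = 6). Both places held in 11 of 11 libraries. Cdt1 (29.8 RPKM over all libraries) and Cdc6 (23.9) came next, with Cdt1 the higher in 3 of 5 controls and 6 of 6 mutants. The order of Orc3 and Orc2 was not the same in both groups. Orc3 was the higher in 5 of 5 controls (18.003 ± 1.38 against 15.4 ± 0.977 RPKM, SD, n = 5) and in 1 of 6 mutants (14.9 ± 0.729 against 15.9 ± 1.98 RPKM, SD, n = 6). Orc5 (12.7) and Orc4 (12.3) did not differ beyond their spread, with Orc5 the higher in 3 of 5 controls and 5 of 6 mutants. Orc1 was lowest in every library, at 8.95 RPKM over all of them. The mean level of Orc6 was 1.80 times that of Gmnn in controls and 2.95 times in mutants.

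The places in the middle depend on which length is used. The exon length of the count table joins all annotated transcripts, 6088 bases for Orc3 and 6166 for Orc5, whereas their longest coding transcripts in GENCODE M21 have 2300 and 2103 bases. With these lengths, an alternative added after seeing the data, Orc3 was at 43.1 and Orc5 at 37.3 RPKM, both above Cdt1 (29.8) and Cdc6 (27.1) in every library. Orc4 was at 22.6 RPKM and Orc2 at 17.0. The top and bottom held, with Orc6 at 256.2, Gmnn at 128.2 and Orc1 at 10.3 RPKM.

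**Figure D4:**
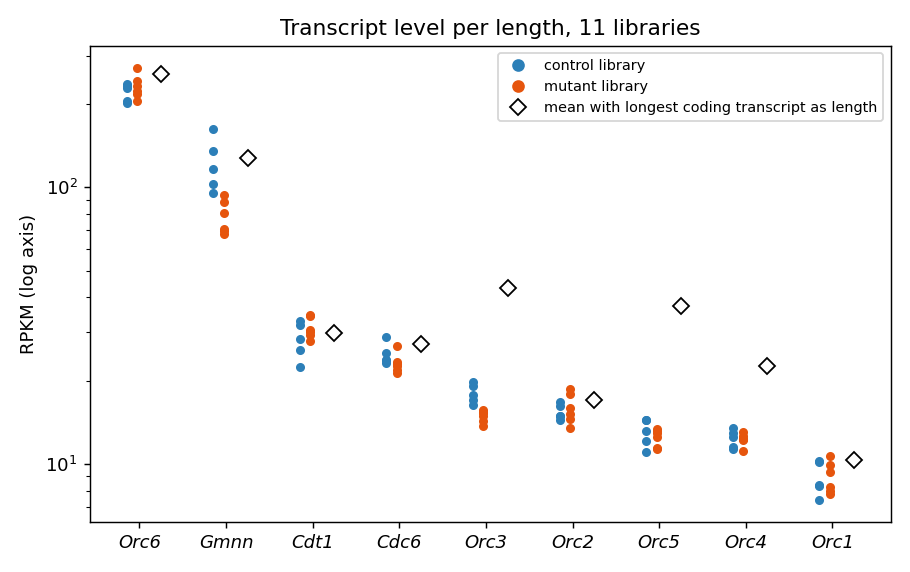
Level per length in RPKM (log axis) of the 9 transcripts in each control (blue) and mutant (orange) library, ordered by mean, with open diamonds for the mean when the longest coding transcript is taken as the length. Orc6 (202.1 to 271.4 RPKM) and Orc1 (7.39 to 10.7 RPKM) keep their places with either length, and Orc3 and Orc5 move the most.

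No member passed the test for a litter difference (edgeR quasi-likelihood test on 3 coefficients, lowest adjusted p 0.229, for Cdt1), where 0.0885% of all genes did. At an unadjusted p under 0.05 there were 4 members (Gmnn, Cdt1, Cdc6 and Orc2), which is to be read against 13.5% of all genes. With no filter on low counts, 1 member passed. No member passed for the genotype by litter interaction either, with 0 of 9 at an unadjusted p under 0.05 and edgeR adjusted p of 0.950 and above, where 0% of all genes passed and 3.82% had an unadjusted p under 0.05.

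The other genes of the pathway were taken as 7 lists with 92 different genes tested. In these lists 5 genes passed the threshold (5.43%, against 2.18% of all genes), 1 higher and 4 lower in mutants. The loading and activation of the helicase gave 2 lower and 0 higher of 20 genes, with a median log2 fold change of -0.04. Chromatin partners of Cdt1 and the origin recognition complex gave 1 lower of 8 (median -0.04), and S phase genes 1 higher and 1 lower of 15 (median 0.01). None passed among 20 genes for the turnover of Cdt1 and Geminin (median -0.01), 12 of E2F and Rb (0.03), 3 Geminin partners (-0.03) and 15 of G2 and mitosis (-0.12, 13 of them below 0). In these 4 lists 6, 7, 1 and 5 genes had an unadjusted p under 0.05 in edgeR. Over all 7 lists 33 of 92 genes did (35.9%, against 21.4% of all genes). DESeq2, run without the edgeR filter on low counts, called 18 of the 92 list genes and 1166 genes in all. The fit without the litter block called 0 list genes and 16 genes in all. Neither total is a share of the 15821 genes, since these fits did not test that same set.

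The cyclins E, partners of Cdk2 at entry into S phase, moved in opposite directions. Ccne1 (chromosome 7, 38097984 to 38107534) rose from 73.4 to 109.5 CPM on average, a log2 fold change of 0.56 (edgeR adjusted p 0.0353). Mutants ranged from 103.7 to 120.6 CPM and controls 1 to 4 from 59.3 to 71.4 CPM. Control 5, with 101.7 CPM, was close to the mutants. Ccne2 (chromosome 4, 11191351 to 11204779) fell from 70.6 to 50.1 CPM, a log2 fold change of -0.47 (edgeR adjusted p 0.0291). Control 5 was the lowest control (58.6 CPM, the others 69.7 to 78.8 CPM). Mutant 5 was the highest mutant (64.3 CPM, the others 44.4 to 52.1 CPM). Of its exon bases, 17.4% are shared with Ints8. Ccne1 carries a T run of 25 bases and is therefore itself among the genes averaged in the T-run index. With a T-run covariate the log2 fold changes were 0.39 and -0.26, with adjusted p of 0.376 and 0.361 in edgeR.

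Cdc7 (chromosome 5, 106964322 to 106984432), the kinase that with Dbf4 starts the loaded helicase, fell by 0.57 on the log2 scale (edgeR adjusted p 0.0406). Its lowest control was control 5 with 57.1 CPM, below 71.9 to 86.2 CPM in the rest. Its highest mutant was mutant 5 with 72.4 CPM, above 38.8 to 51.9 CPM in the rest. Mcmbp (chromosome 7, 128696441 to 128740495), which binds Mcm subunits, fell by 0.71 (edgeR adjusted p 0.0464). Control 5 again was lowest of its group (269.98 CPM, the others 436.6 to 507.0 CPM), and mutant 5 highest of its own (387.6 CPM, the others 161.7 to 274.4 CPM). In both genes, and in Ccne2, control 5 and mutant 5 held the same places as in the T-run index (4.45 and 4.63). Whether the index or genotype goes with these places was not tested. The longest T run is 30 bases in Mcmbp, 10 in Cdc7 and 6 in Ccne2. Mcmbp is therefore among the genes averaged in the index, so its likeness to the index is in part built in. Cdc7 and Ccne2 are not among those genes. With the index as a covariate the log2 fold changes of Mcmbp and Cdc7 were -0.03 and -0.13, with adjusted p of 0.923 and 0.677 in edgeR. Kat7 (chromosome 11, 95274259 to 95310246), a histone acetyltransferase that binds Orc1 and Cdt1, fell by 0.30 (edgeR adjusted p 0.0468). It stood at 65.5 to 79.5 CPM in controls and 51.4 to 61.8 CPM in mutants, with no overlap. With the index its value was -0.18 (edgeR adjusted p 0.495). Its adjusted p in edgeR was 0.0519 under upper-quartile scaling and 0.0514 without mutant 2.

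Leaving out 1 library left 0 of the 5 calls and no other list gene in 8 of the 11 fits. There were 18 list genes called without control 5, 8 without mutant 2 and 1 without mutant 3. The count over all genes, 345, was 850 without control 5, 279 without mutant 2, 9 without mutant 3, and 1 to 15 in the other 8 fits.

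**Figure D5:**
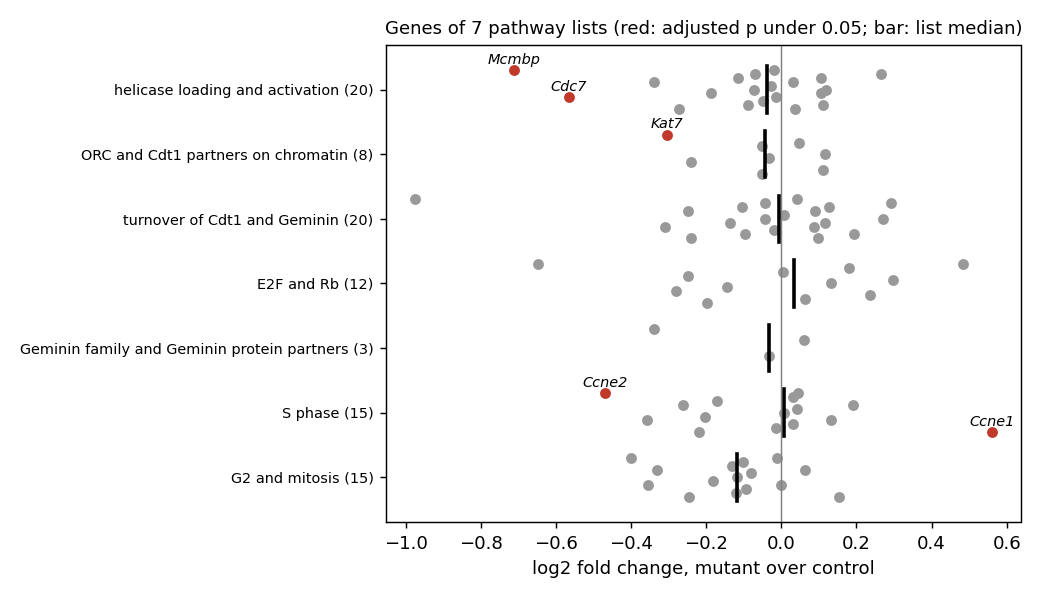
Log2 fold change of mutant over control (horizontal axis) of each tested gene in 7 pathway lists, with the number tested in brackets, genes past the threshold in red with their names, and the list median as a black bar. Medians lie between -0.12 and 0.03, and the 5 named genes lie at 0.56 (Ccne1) and between -0.71 and -0.30 (Mcmbp, Cdc7, Ccne2, Kat7).

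As a description of which genes varied most like Gmnn and Cdt1, log2 CPM were correlated over the 11 libraries with 8542 genes of at least 10 CPM. The libraries share genotype, litter and depth, so no p is given. Gmnn was most like Slbp (Pearson r 0.92), which binds histone mRNA, Slx1b (0.90), a nuclease subunit, and Kif22 (0.88), a kinesin of mitotic chromosomes. Cdt1 was most like Pex14 (0.98), of peroxisomal import, Tmod2 (0.95), a tropomodulin, and Lsm2 (0.94), of the ring that binds U6 RNA.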

How the data were processed

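Forelimb bud RNA of 11 embryos was sequenced after ribosomal RNA depletion, per the labels. The deposited table holds unnormalized counts for each gene name, made by the authors with featureCounts 1.4.6-p4 on mm10 and GENCODE M9 with a mapping quality of at least 10 and no strand option, per the file headers. STAR 2.5.4b is named in the submitters' processing notes. The other deposited value used is the exon length in bases, per the file headers. The header names 12 alignment files, and 11 libraries were analysed here.

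Counts were tested with edgeR 4.0.16 (limma 3.58.1, R 4.3.3): filterByExpr (99.9% of counts kept), TMM scaling, quasi-likelihood F test with litter as a block, Benjamini-Hochberg adjustment over 15821 genes and a threshold of 0.05. Log2 CPM used a prior count of 2. SE and 95% intervals come from the F statistic. Intervals of a fold give the uncertainty of the mean genotype difference, estimated from the variation between these embryos. They do not span the values of single embryos or litters. Overlaps of exons were taken from the M9 exons in the count table, T runs and coding lengths from GENCODE M21 transcripts (same genome). The script was tested on simulated data.

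The titles give the litters, which pair the groups. Across genes, deviations from group means correlated by a median of 0.130 between littermates of opposite genotype (8 pairs) and -0.0199 between embryos of different litters (22 pairs). No 2 libraries of a group agreed within sampling noise (25 pairs, chi-square divided by its degrees of freedom at least 6.82).

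The members and the lists were chosen with earlier results of these data known. All members are named. Other genes are named where a list gene passed the threshold (up to 6 per list), and as the 3 genes most like Gmnn and Cdt1. The alternatives were RLE and upper-quartile scaling, no or another filter, limma-voom, DESeq2 1.42.0, a fit with no block, a covariate for Y-linked reads or the T-run index, a table without genes of haemoglobin, mitochondria and ribosomal RNA, a prior count of 0.5, and each library or litter left out. The motifs, the coding lengths, the order of levels within each genotype and the littermate values were added after the data were seen.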

Additional observations from a re-analysis of the deposited data

Results flagged for a closer look

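In mutants, the Gmnn to Cdt1 ratio of mutant 2 was 3.08, while the other 5 mutants lay between 2.34 and 2.59. It was picked out because the gap to the nearest library was 0.636 of the range of the group. Of 40 such comparisons (the lowest and highest library of each group, for the 9 members and the ratio), 1 met the criterion. Chance alone can give that number. Mutant 2 also had the highest haemoglobin share of all libraries (5.44%, against 1.34% to 3.30% in the other 10), and the part of blood in the ratio was not tested. Without mutant 2 the within-litter difference of the ratio was -0.87 on the log2 scale.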

How the results depend on the processing

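Gmnn, Cdt1, Cdc6, Orc1, Orc3 and Orc5 kept their direction under every alternative run. The number of genes called, 345, was 1566 with no filter on low counts, 550 with a filter of 1 CPM in 5 libraries, 1166 with DESeq2, 790 with a Y-linked covariate, 16 without the replicate block (litter), 2 with a T-run covariate, and 9, 3, 1 and 148 without litters A, B, C and D. It was 1 to 850 when 1 library was left out. The members called, 1, became 2 (Gmnn and Orc3) with either other filter, with DESeq2 and with the Y-linked covariate, and 0 without the block or without litter B, C or D, and 0 to 2 without 1 library. The pathway genes called, 5, became 18 with no filter, 9 with the CPM filter, 18 with DESeq2, 8 with limma-voom, 16 with the Y-linked covariate, 3 without litter D, 0 without the block, with the T-run index or without litter A, B or C, and 0 to 18 without 1 library. A litter difference was called for 1 member with no filter.

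The log2 fold change of Gmnn lost its call without the block (-0.64) and without litters B (-0.71), C (-0.65) and D (-0.57), and was -0.75 to -0.57 without 1 library. Its adjusted p was 6.74e-14 to 0.139 over all alternatives. The Gmnn to Cdt1 ratio was -0.91 without litter A and -0.75 without litter D, both with an exact permutation p of 0.0833, the smallest those subsets allow, and -0.89 to -0.75 without 1 library. Without the block it was -0.77 (exact permutation p 0.00216). Signs changed for values near 0. Orc2 was -0.0038 without litter C and -0.0058 to 0.055 without 1 library. Orc4 was 0.037 with upper-quartile scaling, 0.00017 with the CPM filter, 0.063 and 0.0071 without litters A and C, and -0.038 to 0.050 without 1 library. Orc6 was -0.16 with the T-run index and -0.0091 to 0.11 without 1 library. The cause was not tested, except that leaving out libraries or litters removes samples. Depth limits Orc1 the most, with 367 reads in its lowest library.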

Other observations

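Littermates of the same genotype differed in these genes as well. In litter A, control 2 had more Gmnn than control 1 (199.0 against 150.3 CPM, 0.40 on the log2 scale) and mutant 2 more than mutant 1 (137.7 against 103.4 CPM, 0.41). The median absolute difference over all genes was 0.228 for the control pair and 0.264 for the mutant pair. Orc1 was lower in both, by -0.30 and -0.31. Orc6 differed by 0.23 in the controls, about the median of all genes, and by 0.40 in the mutants. Cdc6 (-0.09 and -0.10), Orc2 (-0.01 and -0.06) and Orc4 (0.11 and 0.23) stayed below those medians. Cdt1 (-0.16 and 0.02), Orc3 (0.27 and -0.05) and Orc5 (0.25 and -0.02) had opposite signs in the pairs. Control 2 and mutant 2 had 24 and 8 Y-linked reads, where control 1 and mutant 1 had 2492 and 2015. Their haemoglobin shares were 3.30% and 5.44%, against 1.42% and 1.69% in control 1 and mutant 1. Whether either goes with the difference was not tested. In litter D, mutants 3 and 4 differed by 0.13 in Gmnn and by -0.09 in Orc1, where the median absolute difference over all genes was 0.173. For comparison, the difference between genotypes in Gmnn was -0.54 in litter A.

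The other genes of the Geminin family, Gmnc and Mcidas, had 5 and 3 reads over all 11 libraries, too few for a test.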
